A study of Mus musculus with 11 samples.

Results

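Haemopoietic growth factor receptors were examined as 9 genes in sorted mouse marrow cells: Kit, Flt3, Csf1r, Csf2rb, Csf3r, Epor, Il7r, Il3ra and Il6st. They were chosen by name, and every probe annotated to one of them was taken, which gave 24 of the 45281 probes on the array and 9 of the 19057 gene symbols. RNA of C57BL/6 mouse cells was measured on 11 Illumina MouseWG-6 v2 bead arrays, and some RNA was pooled before labelling. The labels name 2 arrays of haemopoietic stem cells (HSC), sorted by the LSK gate with CD150 present and CD48 absent. The other 9 arrays hold cells that took up FITC-AGE, a fluorescent reagent, with 3 arrays for each of 3 gates: CD31+ B220+, then CD31+ B220-, and lastly CD31- B220-. The labels call all of these scavenger endothelial cells, and the cells of every group came from the endosteal region of marrow. No treatment or allele is named for any group. The labels do not say that the numbered replicates came from separate animals, so each p-value measures the spread between these arrays, which may be technical. The LSK gate keeps cells with Kit on their surface, so the high Kit of the HSC arrays is partly set by their sort. B220 and CD31 (Pecam1) were likewise used to sort the fractions.

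These receptors carry the signals that keep blood cells alive, dividing and maturing, and each is best known on certain lineages. Kit, Flt3 and Csf1r are receptor tyrosine kinases of class III, which pair up when stem cell factor, Flt3 ligand or CSF1 binds and then phosphorylate themselves. The others have no kinase of their own and work through JAK kinases and STAT transcription factors: Epor and Csf3r as homodimers, Il3ra with a beta chain such as Csf2rb, Il7r with the common gamma chain, and Il6st, also called gp130, as the shared chain of the interleukin-6 family. Stem cells are known for Kit, macrophages for Csf1r, neutrophils for Csf3r, red cell precursors for Epor and B and T cell precursors for Il7r.

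Promoter windows of 7 of the 9 genes were taken from RefSeq's mouse assembly GRCm38.p6, and those of Csf1r and Csf2rb were not used. Where a gene had several windows, the one with the lowest start coordinate was taken. The 4 shown are those of Epor, Csf3r, Il6st and Il7r: Epor and Il7r had their highest levels in different fractions, and Csf3r and Il6st had the most similar profiles of any pair of receptors. Each is given 5′ to 3′ on the strand of the gene and holds the 250 bases before its annotated start. They lie at chr9:21963577-21963826 (minus strand), chr4:126024409-126024658 (plus), chr13:112463820-112464069 (plus) and chr15:9529877-9530126 (minus). Capitals mark matches, on either strand, to GATAA (the core bound by GATA factors), GAGGAA (a core bound by PU.1) and GGGCGG (the GC box bound by Sp1). The letters of these motifs do not overlap one another in the 4 windows.
Epor: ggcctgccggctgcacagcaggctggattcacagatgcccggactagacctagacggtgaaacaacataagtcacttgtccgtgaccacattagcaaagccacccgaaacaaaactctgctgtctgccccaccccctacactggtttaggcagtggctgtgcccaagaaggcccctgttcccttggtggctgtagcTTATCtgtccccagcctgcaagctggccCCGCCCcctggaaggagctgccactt
Csf3r: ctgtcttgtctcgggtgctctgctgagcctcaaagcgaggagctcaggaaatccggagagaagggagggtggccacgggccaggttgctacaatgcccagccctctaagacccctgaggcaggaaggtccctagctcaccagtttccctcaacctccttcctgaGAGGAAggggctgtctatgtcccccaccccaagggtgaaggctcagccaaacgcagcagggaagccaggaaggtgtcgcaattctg
Il6st: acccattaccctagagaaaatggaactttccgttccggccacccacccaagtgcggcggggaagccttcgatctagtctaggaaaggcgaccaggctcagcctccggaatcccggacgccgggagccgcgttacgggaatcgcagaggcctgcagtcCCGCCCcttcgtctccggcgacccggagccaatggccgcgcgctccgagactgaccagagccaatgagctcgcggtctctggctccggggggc
Il7r: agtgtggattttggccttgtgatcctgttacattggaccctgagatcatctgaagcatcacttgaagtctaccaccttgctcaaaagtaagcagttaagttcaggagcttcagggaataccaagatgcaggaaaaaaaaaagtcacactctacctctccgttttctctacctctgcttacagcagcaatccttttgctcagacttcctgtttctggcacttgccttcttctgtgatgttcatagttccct

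The Epor window held a GATAA match on the opposite strand 54 bases before the start and a GGGCGG match on the opposite strand 26 bases before it. In the Csf3r window a GAGGAA match stood 86 bases before the start. Il6st had a GGGCGG match on the opposite strand 93 bases before the start, and the Il7r window had none of the 3 motifs. Of the other windows, that of Kit held GAGGAA and GGGCGG, that of Il3ra held 5 matches to GGGCGG, some sharing bases, and that of Flt3 held none. Among all 32851 windows of this length, 22.6% held GATAA, 23.3% GAGGAA and 32.7% GGGCGG, so a match is common. The Il7r window was 44% G or C and the Epor, Csf3r and Il6st windows 58.8%, 60% and 66%, against a median of 52.4% over all windows.

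Signals were background-corrected and quantile-normalized, and levels are given on the resulting log2 scale. A probe counted as detected on an array at a detection p under 0.05, and the lowest detected level lay between 5.26 and 5.64 on the 11 arrays. Of the 24 receptor probes, 19 were detected on at least 2 arrays and 3 on none. Each gene was followed by the probe with the highest mean, and for all 9 genes that probe passed the filter, so all 9 were among the 11381 genes tested. Levels of different probes cannot be set against each other on such arrays, so each gene is compared with itself across groups. Before normalization the HSC arrays were brighter, with an upper quartile of probe signals of 376.8 to 450.5 against 145.9 to 211.6 on the 9 other arrays, and this coincides with cell type in all comparisons with HSC. In bulk RNA, fewer cells of a type and less RNA per cell cannot be told apart.

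The fractions also differed in markers of blood lineages. The summed normalized signal of 8 tested B lineage markers was 46119 to 47626 in CD31+ B220+ cells, 10278 to 16659 in CD31+ B220- cells, 603.0 to 1005 in CD31- B220- cells and 1046 to 1124 in HSC. For 8 macrophage and monocyte markers the sum was 43942 to 49624 in CD31+ B220- and 35051 to 47497 in CD31- B220- cells, but 3769 to 4901 in CD31+ B220+ cells and 2233 to 2765 in HSC. Neutrophil and granule markers (9 tested) summed to 65090 to 73515 in CD31+ B220- and 23174 to 58798 in CD31- B220- cells, against 1606 to 7310 in CD31+ B220+ cells and 7538 to 7830 in HSC. Between the B220- fractions these markers split, with 4 called higher and 3 lower in CD31+ B220- cells. Elane was at 13.70 there against 10.70 in CD31- B220- cells, but Ltf was at 8.18 against 11.40. Erythroid markers (8 tested) summed to 67939 to 77619 in CD31- B220- cells, 7231 to 16372 in both CD31+ fractions and 17694 to 21279 in HSC. Stromal markers (9 tested) summed to 6957 to 10494.5 in CD31- B220- cells and to 283.8 to 871.3 on all other arrays. For 6 plasmacytoid dendritic cell markers the sum was 8353 to 9236 in CD31+ B220+ and 3989 to 5699 in CD31+ B220- cells. It was 1928 to 2863 in CD31- B220- cells and 3106 to 3283 in HSC. The part of these cell types in the receptor differences was not tested. Of 11 tested endothelial markers, 3 or 4 were detected on each CD31+ B220+ array, 9 or 10 on each CD31+ B220- array and 3 to 5 on each CD31- B220- array. On each HSC array 9 were detected, at a mean log2 level of 8.73 to 8.87 against 7.10 to 7.24 in CD31+ B220- cells. Stab1 was detected on every array, while Cdh5, the junctional cadherin of endothelium, was detected on 3 of 3 CD31+ B220- arrays, 1 of 3 CD31+ B220+ arrays and no CD31- B220- array. Kdr, a VEGF receptor, was detected on 1 of 3 arrays of each fraction.

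**Figure D1:**
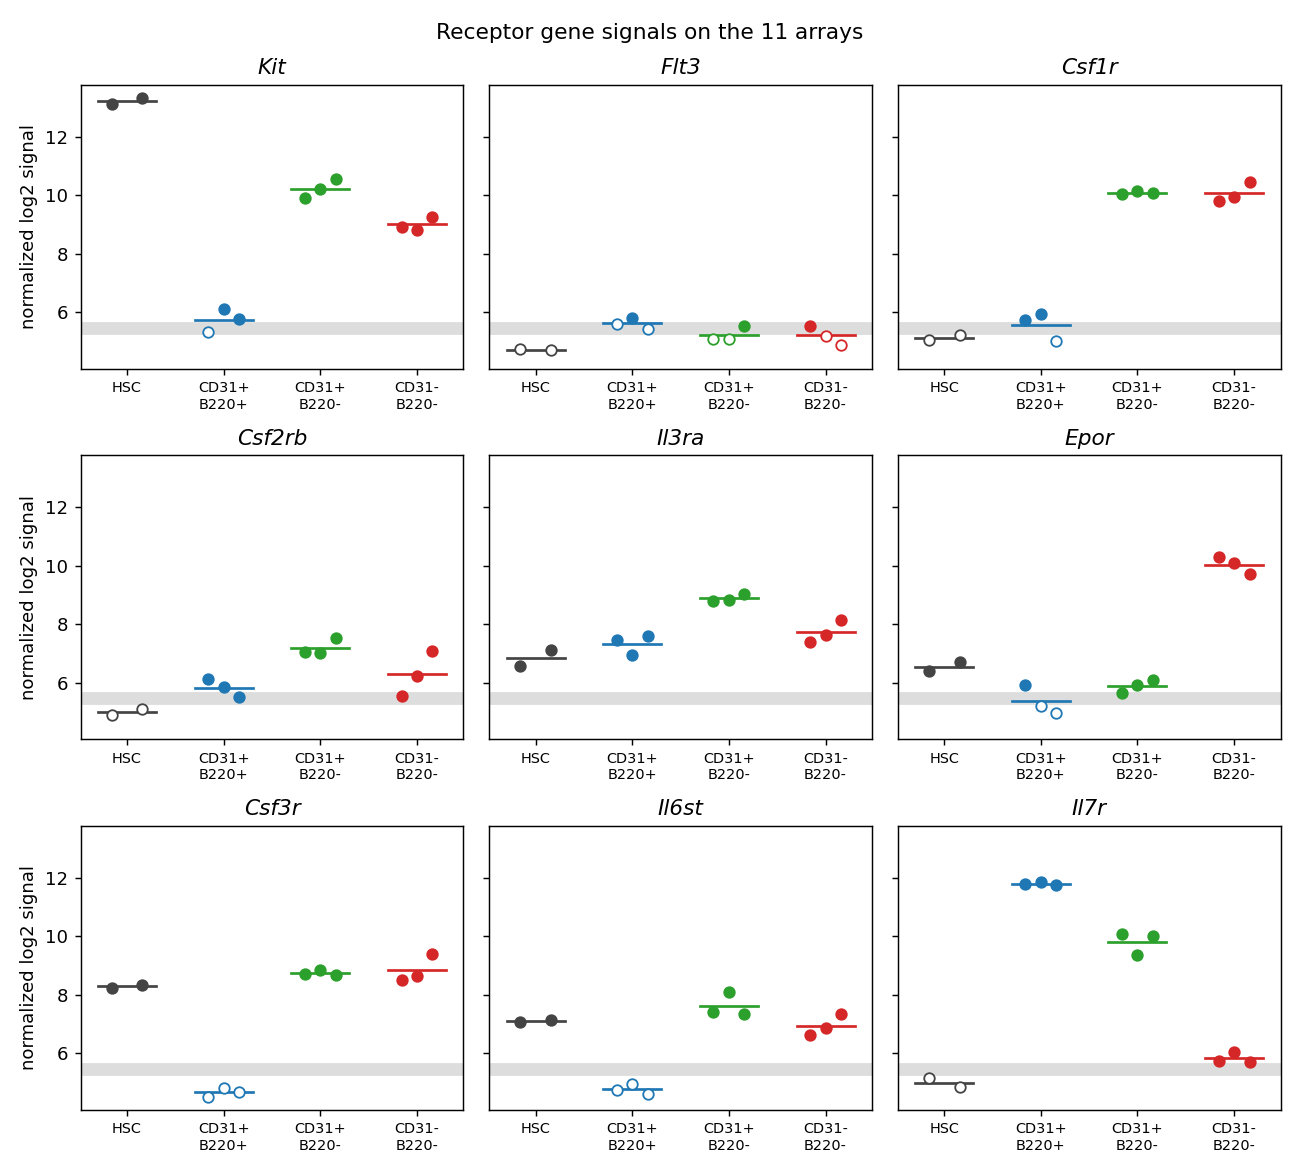
Normalized log2 signal of the 9 receptor genes on the 11 arrays, by group. Filled points are arrays that detected the probe, open points those that did not, short lines are group means, and the grey band spans the lowest detected level of the arrays (5.26 to 5.64). Kit is highest in HSC, Il7r in CD31+ B220+ cells and Epor in CD31- B220- cells, while Csf1r is near the band in HSC and CD31+ B220+ cells.

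Of the receptor kinases, Kit had the widest span. Its log2 signal was 13.14 and 13.34 on the HSC arrays, 9.89, 10.21 and 10.55 in CD31+ B220- cells, 8.92, 8.82 and 9.27 in CD31- B220- cells, and 5.32, 6.09 and 5.76 in CD31+ B220+ cells. All HSC arrays lay above all others, and no 2 groups overlapped. In the deposited intensities, before any normalization, the same probe read 15763 and 22568 in HSC and 128.5 to 162.6 in CD31+ B220+ cells, of which 1 array did not detect it. Relative to HSC, Kit was 183-fold lower in CD31+ B220+ cells (log2 difference -7.51 ± 0.27, SE; adjusted p = 6.03e-09). Its size depended on the processing, with log2 differences of -8.28 to -3.75 over 22 alternatives. Relative to HSC, Kit was also 8.12-fold lower in CD31+ B220- cells (adjusted p = 6.05e-06) and 18.8-fold lower in CD31- B220- cells (adjusted p = 2.88e-07). Among the fractions, CD31+ B220- cells exceeded CD31- B220- cells 2.32-fold (adjusted p = 0.00264), and CD31+ B220+ cells lay 22.5-fold and 9.71-fold below these 2 groups (adjusted p = 1.1e-07 and 5.52e-07).

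Of the other Kit probes, both annotated to cDNA clones, one was detected on both HSC arrays at 8.09 ± 0.66 (SD, n = 2), on 2 of 3 CD31+ B220- arrays and on no array of the remaining fractions. Relative to HSC it was at least 5.93-fold lower in CD31+ B220+ cells (adjusted p = 2.14e-05 over all genes and probes of the probe-wise fit) and did not separate CD31+ B220- from CD31- B220- cells (adjusted p = 0.168). The last Kit probe was detected on no array. "At least" marks a lower bound throughout, given where the probe was undetected on the whole dimmer group and computed from the brighter group's mean and the higher of each dim array's own value and its lowest detected value. Folds near background are also pulled toward 1 by the offset of 16 added before the logarithm.

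Flt3, the receptor of lymphoid and dendritic progenitors, stayed near background. Its brighter probe was detected on neither HSC array, which read 4.73 and 4.71, and on 1 of 3 arrays of each fraction. CD31+ B220+ cells read 5.60, 5.80 and 5.43, CD31+ B220- cells 5.08, 5.07 and 5.54, and CD31- B220- cells 5.53, 5.19 and 4.88. The HSC arrays were the lowest, and the fractions overlapped one another. The call that set Flt3 of CD31+ B220+ cells above HSC (at least 1.27-fold, adjusted p = 0.00895) rests on a single detected array. It held under 19 of 22 alternatives (largest adjusted p = 0.218) and was lost without HSC replicate 1 or HSC replicate 2. The probe used is annotated to a cDNA clone. The other Flt3 probe, annotated to a RefSeq transcript, was detected on 1 array in all, with means of 4.89 in HSC and 4.75 in CD31+ B220+ cells. Flt3 was the only one of the 9 receptors that the F-test over the 3 fractions did not call (adjusted p = 0.201).

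Csf1r, the receptor through which CSF1 sustains macrophages, divided the groups in 2. Its level was 10.03, 10.15 and 10.09 in CD31+ B220- cells and 9.81, 9.93 and 10.44 in CD31- B220- cells. On the HSC arrays it was 5.03 and 5.20, detected on neither, and in CD31+ B220+ cells 5.72, 5.93 and 5.01, detected on 2 of 3. The B220- fractions overlapped and lay above every array of the other groups. Relative to HSC, Csf1r was at least 28.3-fold higher in CD31+ B220- cells (adjusted p = 2.39e-07) and at least 27.7-fold higher in CD31- B220- cells (adjusted p = 1.29e-07). CD31+ B220+ cells lay 23.3-fold below CD31+ B220- cells (adjusted p = 1.32e-07) and 22.8-fold below CD31- B220- cells (adjusted p = 5.5e-08). Between the B220- fractions the log2 difference was 0.03, with a 95% interval of -0.51 to 0.57 (adjusted p = 0.949). A second Csf1r probe gave the same order, at 8.04 ± 0.38 and 7.96 ± 0.33 in the B220- fractions (SD, n = 3 each), and neither HSC nor CD31+ B220+ cells had an array that detected it. Of the 8 tested macrophage and monocyte markers, Adgre1, Ccr2, Cd14 and Cx3cr1 were likewise detected on all 6 arrays of the B220- fractions and on none of the other 5. The other 4 (F13a1, Ly86, Lyz2 and Mpeg1) were detected on all 11 arrays, and Ly86 was as high in CD31+ B220+ cells (11.53) as in CD31+ B220- cells (11.49).

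**Figure D2:**
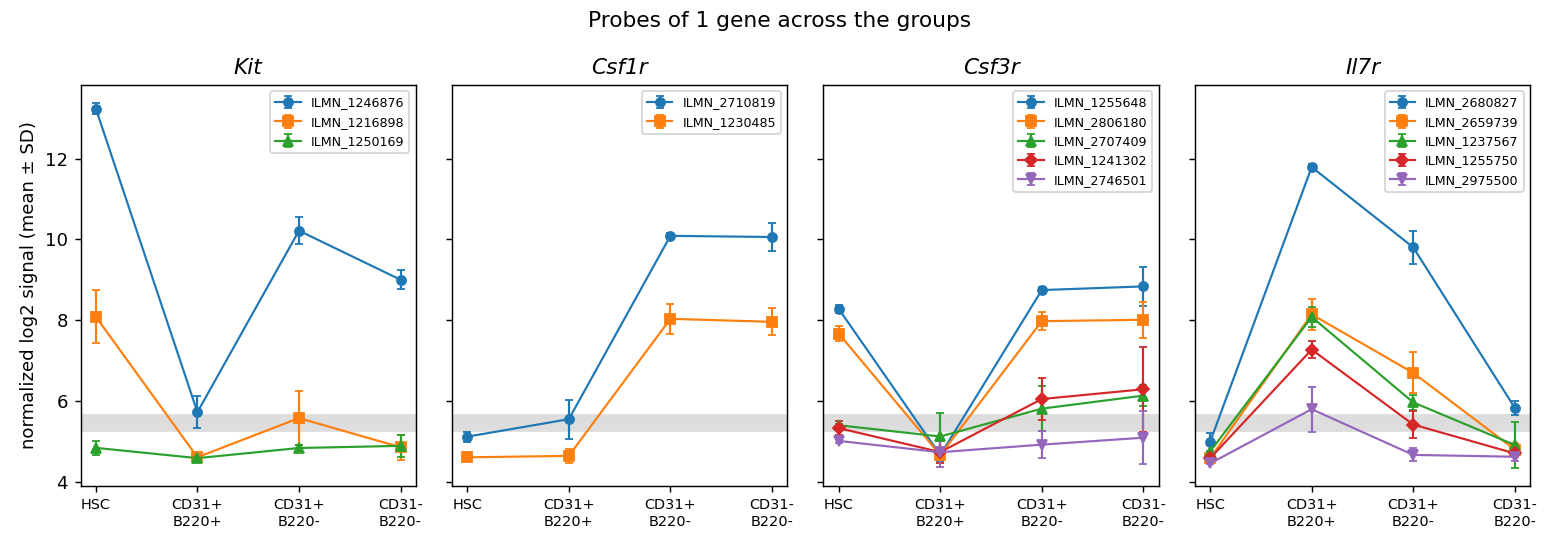
Mean log2 signal (± SD, n = 2 for HSC and n = 3 for each fraction) of every probe of Kit, Csf1r, Csf3r and Il7r across the groups, 1 line per probe, with lines joining groups only to guide the eye and the grey band spanning the lowest detected level of the arrays (5.26 to 5.64). The brighter probes of a gene share the order of the groups, while a Kit probe and a Csf3r probe stay at or under the band.

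Of the homodimeric receptors, Epor, which carries the survival signal of erythropoietin to red cell precursors, was highest in CD31- B220- cells. The array has 1 probe for it. It read 10.32, 10.09 and 9.71 in CD31- B220- cells, 6.38 and 6.70 in HSC, 5.63, 5.91 and 6.08 in CD31+ B220- cells, and 5.93, 5.19 and 4.95 in CD31+ B220+ cells, where 1 of 3 arrays detected it. CD31- B220- cells stood apart from all other groups, whereas the 2 CD31+ fractions overlapped. The level in CD31- B220- cells was 11.3-fold that of HSC (adjusted p = 2.51e-06) and 17.9-fold that of CD31+ B220- cells (adjusted p = 5.94e-07). It was also called above CD31+ B220+ cells (adjusted p = 7.1e-08), whose mean of 5.36 was below the lowest detected level of their arrays (5.45 to 5.62), so no fold is given. CD31+ B220+ cells were called below HSC (adjusted p = 0.00686), a call lost without HSC replicate 2 (adjusted p = 0.069). The difference between CD31+ B220- cells and HSC was not called (log2 -0.67, 95% interval -1.32 to -0.02, adjusted p = 0.0935). It was called under scaling to a common median (log2 -1.85, adjusted p = 1.03e-05), with only the arrays of both groups in the fit (adjusted p = 0.0413) and without CD31+ B220+ replicate 1 (adjusted p = 0.0416). All 8 tested erythroid markers had their highest mean in CD31- B220- cells, such as the erythroid factor Klf1 at 12.23.

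Csf3r, the receptor of the neutrophil growth factor G-CSF, was lowest in CD31+ B220+ cells. On its brightest probe HSC read 8.22 and 8.35, CD31+ B220- cells 8.71, 8.84 and 8.69, CD31- B220- cells 8.50, 8.62 and 9.40, and CD31+ B220+ cells 4.50, 4.82 and 4.67, none of them detected. CD31+ B220+ cells lay below all others without overlap, and the 2 B220- fractions overlapped. They were at least 6.80-fold below HSC (adjusted p = 5.4e-07), at least 9.38-fold below CD31+ B220- cells (adjusted p = 1.45e-07) and at least 9.99-fold below CD31- B220- cells (adjusted p = 4.92e-08). The B220- fractions did not differ by the test (log2 difference -0.09, 95% interval -0.59 to 0.41, adjusted p = 0.809). Their small excess over HSC was not called (adjusted p = 0.165 and 0.0901), and scaling the arrays to a common median instead of quantile normalization turned it into a called deficit, with log2 differences of -1.03 and -0.88. A second Csf3r probe placed the groups in the same order, at 7.67 ± 0.19 in HSC (SD, n = 2), 7.98 ± 0.23 and 8.01 ± 0.45 in the B220- fractions (n = 3 each) and undetected in CD31+ B220+ cells. Of the other 3 probes, 2 had group means of at most 6.29, and 1 of these was detected on a single CD31+ B220+ array, at 5.78. The last was detected on 1 array in all.

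The receptors of the interleukin-3 family were dimmer. Csf2rb, the beta chain shared by the receptors for interleukin-3, interleukin-5 and GM-CSF, was detected on no HSC array (4.88 and 5.10). It read 7.05, 7.03 and 7.52 in CD31+ B220- cells, 5.55, 6.22 and 7.09 in CD31- B220- cells, and 6.11, 5.85 and 5.50 in CD31+ B220+ cells. The HSC arrays were lowest, and the widely spread CD31- B220- arrays overlapped both other fractions, with replicate 3 the highest of them. Relative to HSC, Csf2rb was at least 3.82-fold higher in CD31+ B220- cells (adjusted p = 0.000685), at least 2.03-fold higher in CD31- B220- cells (adjusted p = 0.0133, but 0.0928 without HSC replicate 1), and 2.60-fold higher in CD31+ B220- than in CD31+ B220+ cells (adjusted p = 0.00738). The difference between the B220- fractions was not called (adjusted p = 0.0632), but without CD31- B220- replicate 3 it was (log2 1.32, adjusted p = 0.00435). Of the other Csf2rb probes, 1 was detected on 2 of 3 arrays of CD31+ B220- cells alone and 1 on no array. In the probe-wise fit the former was not called above HSC in CD31+ B220- cells (adjusted p = 0.0733) or in CD31- B220- cells (adjusted p = 0.664). Nor was it called between the CD31+ fractions (adjusted p = 0.233), so the Csf2rb calls rest on 1 probe.

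Il3ra, the alpha chain that binds interleukin-3, was the only receptor detected on all 11 arrays. It read 6.58 and 7.13 in HSC, 7.47, 6.95 and 7.59 in CD31+ B220+ cells, 8.81, 8.83 and 9.05 in CD31+ B220- cells, and 7.38, 7.64 and 8.15 in CD31- B220- cells. Every CD31+ B220- array was above every other array, and CD31+ B220+ cells overlapped HSC and CD31- B220- cells. The level in CD31+ B220- cells was 4.12-fold that of HSC (adjusted p = 0.000146), 2.95-fold that of CD31+ B220+ cells (adjusted p = 0.000512) and 2.25-fold that of CD31- B220- cells (adjusted p = 0.00426). Under scaling to a common median the first of these fell to a log2 difference of 0.58 and was no longer called (adjusted p = 0.124). The rise of 1.83-fold from HSC to CD31- B220- cells (adjusted p = 0.0221) turned to a log2 difference of -0.63 under that scaling (adjusted p = 0.0995), and was not called without HSC replicate 1 (adjusted p = 0.208) or CD31- B220- replicate 3 (adjusted p = 0.0669). Il3ra did not differ by the test between CD31+ B220+ cells and HSC (log2 0.48, 95% interval -0.13 to 1.09, adjusted p = 0.182), and under that scaling it was lower there (log2 -1.13, adjusted p = 0.00517). The mean log2 level of 6 tested markers of basophils and mast cells, which respond to interleukin-3, was 9.37 to 9.79 on the CD31+ B220- arrays, against 7.18 to 7.29 in HSC and 5.22 to 6.08 in the other fractions. Their summed signal, 5863 to 7999 in CD31+ B220- cells, overlapped that of HSC (6202 to 6208). The HSC sum came mostly from Gata2, at a mean of 12.50 there and 9.52 in CD31+ B220- cells. Cpa3, Mcpt8, Fcer1a, Hdc and Prss34 had HSC means of 5.53 to 6.98, against 7.21 to 11.18 in CD31+ B220- cells. The part of basophils and mast cells in the Il3ra difference was not tested.

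Il7r, which carries interleukin-7 signals to B and T cell precursors, was highest in the CD31+ B220+ fraction, where Kit was lowest. It read 11.78, 11.86 and 11.74 in CD31+ B220+ cells, 10.06, 9.34 and 10.01 in CD31+ B220- cells, 5.74, 6.04 and 5.71 in CD31- B220- cells, and 5.15 and 4.84 in HSC, where neither array detected it. The groups did not overlap. Measured against HSC, Il7r was at least 92.2-fold higher in CD31+ B220+ cells (adjusted p = 6.03e-09), at least 23.2-fold higher in CD31+ B220- cells (adjusted p = 1.28e-07) and at least 1.48-fold higher in CD31- B220- cells (adjusted p = 0.0119). The last call was lost under 4 of 22 alternatives: without background correction (adjusted p = 0.172), under scaling to a common median (0.194), with the mean over all probes (0.154) and without HSC replicate 2 (0.107). CD31+ B220+ cells exceeded CD31+ B220- cells 3.97-fold (adjusted p = 2.47e-05) and CD31- B220- cells 62.4-fold (adjusted p = 4.55e-09), and the latter pair differed 15.7-fold (adjusted p = 1.78e-07). The other 4 Il7r probes were all highest in CD31+ B220+ cells, with means of 8.14, 8.08, 7.27 and 5.80, and all 4 were called higher there than in CD31+ B220- cells, by 2.73-fold, 4.34-fold, 3.62-fold and at least 1.32-fold. None of these 4 was detected in HSC or CD31- B220- cells. Of the 8 tested B lineage markers, 6 (Blnk, Cd79b, Ebf1, Ms4a1, Pax5 and Vpreb3) had their highest mean in CD31+ B220+ cells, such as Vpreb3 at 14.27, 11.73 and 7.18 in the CD31+ B220+, then CD31+ B220-, then CD31- B220- cells. The other 2, the surrogate light chain genes Igll1 and Vpreb1, had their highest means in CD31+ B220- cells, at 11.99 and 11.01 against 11.44 and 10.83 in CD31+ B220+ cells. Neither difference between these fractions was called. The CD31+ B220- cells also carried T and NK cell markers, 6 of 6 of them called higher there than in each other group, with a summed signal of 3594 to 6872 against 271.6 to 976.8 on all other arrays. Cd3d, Cd3e and Cd3g were detected on 3 of 3 CD31+ B220- arrays and on no HSC or CD31+ B220+ array. The part of B, T or NK cells in the Il7r differences was not tested.

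Il6st, the shared signalling chain of the interleukin-6 family, resembled Csf3r. It read 7.07 and 7.14 in HSC, 7.40, 8.08 and 7.34 in CD31+ B220- cells, 6.63, 6.85 and 7.32 in CD31- B220- cells, and 4.73, 4.94 and 4.61 in CD31+ B220+ cells, where no array detected it. CD31+ B220+ cells lay below all other arrays, and HSC overlapped CD31- B220- cells. They were at least 3.00-fold below HSC (adjusted p = 2.7e-05), at least 4.25-fold below CD31+ B220- cells (adjusted p = 3.79e-06) and at least 2.67-fold below CD31- B220- cells (adjusted p = 1.64e-05). CD31+ B220- cells did not differ by the test from HSC (log2 0.50, 95% interval -0.09 to 1.09), although scaling to a common median gave a called deficit (log2 -0.98, adjusted p = 0.0087). CD31- B220- cells were at a log2 difference of -0.17 from HSC (95% interval -0.76 to 0.41, adjusted p = 0.617), and at -1.65 under that scaling (adjusted p = 9.52e-05). A second Il6st probe was detected on no array.

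Against HSC, 6 receptors were called in CD31+ B220+ cells, where 44.2% of all tested genes were called. Of these, Il7r and Flt3 were higher (18.6% of all genes) and Kit, Csf3r, Il6st and Epor lower (25.6%). In CD31+ B220- cells 5 were called against HSC (background 41.3%): Csf1r, Il7r, Csf2rb and Il3ra higher (17.6%) and Kit lower (23.7%). In CD31- B220- cells 6 were called (49.2%), with Csf1r, Epor, Csf2rb, Il3ra and Il7r higher (20.9%) and Kit lower (28.3%). The median log2 difference of the 9 receptors from HSC was 0.43, 0.51 and 0.84 in these comparisons, against -0.03, -0.06 and -0.05 over all genes. These medians are the differences of Csf1r, Flt3 and Il7r, in that order, of which only that of Il7r was called. These comparisons share the HSC arrays.

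Among the fractions, 7 receptors were called between CD31+ B220+ and CD31+ B220- cells (background 35.3%), and 6 of these were lower in CD31+ B220+ cells (18.5%), Il7r alone being higher (16.8%). Between CD31+ B220+ and CD31- B220- cells 6 were called (44.8%), 5 lower (22.5%) and Il7r higher (22.4%). Between the B220- fractions 4 were called (28.1%): Kit, Il7r and Il3ra higher in CD31+ B220- cells (as were 1817 of the 11381 genes) and Epor lower (12.1%). The median log2 differences of the 9 receptors were -1.56, -2.17 and 0.67, against 0.01, 0.02 and 0.07 over all genes. The F-test over the 3 fractions called 8 of 9 receptors, where it called 52.0% of all genes. These counts and medians describe the 9 genes, with no test of the list.

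**Figure D3:**
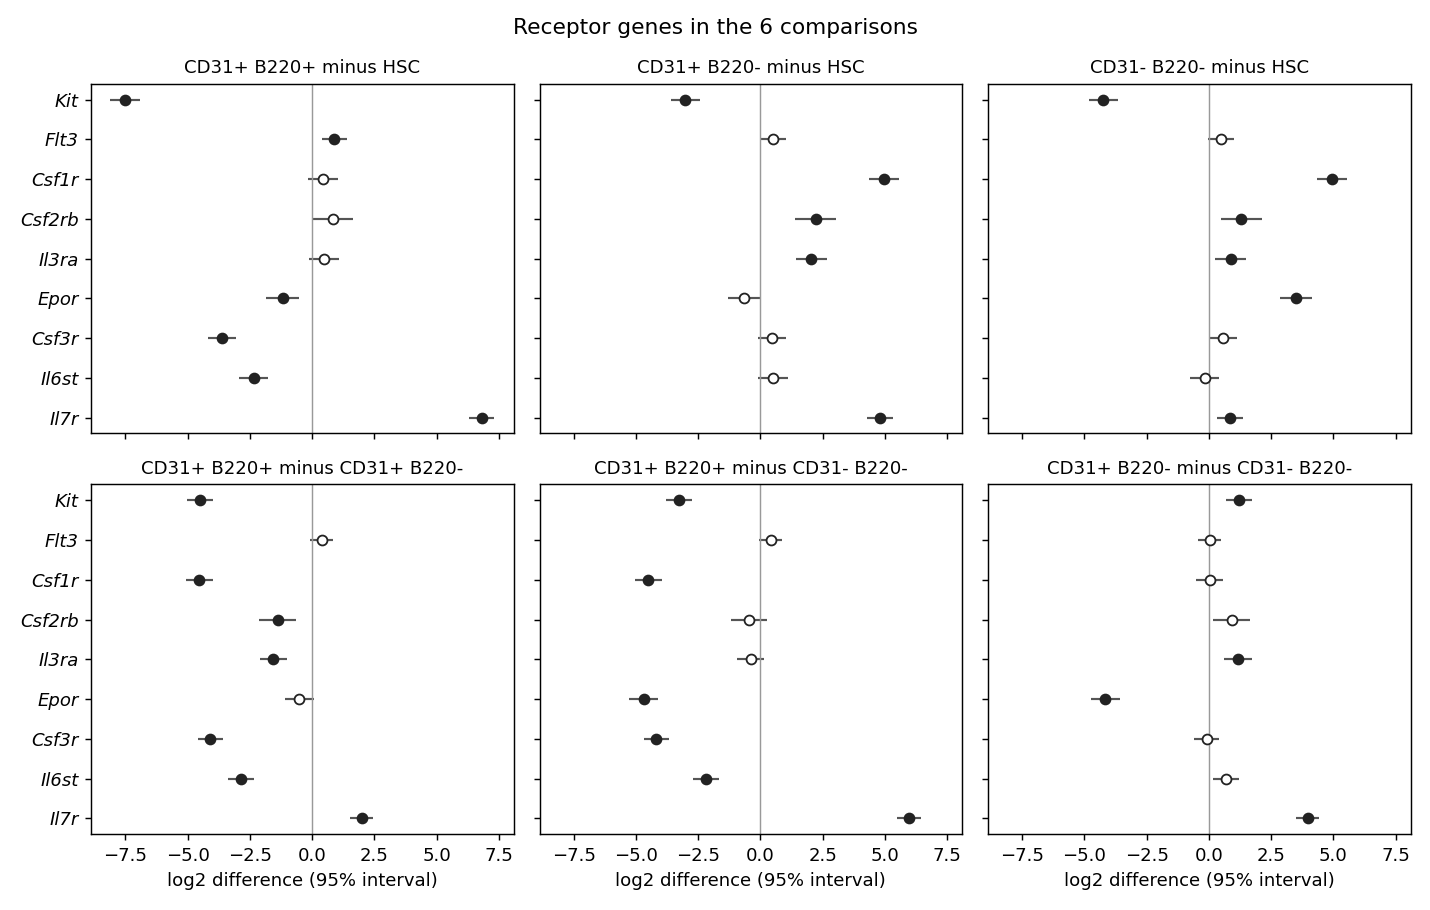
Log2 differences of the 9 receptor genes in the 6 comparisons, first-named group minus second, with 95% intervals of the limma fit. Filled points passed an adjusted p under 0.05 and open points did not. Kit and Il7r lie at opposite ends in CD31+ B220+ cells minus HSC, at -7.51 and 6.80.

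Profiles over the 11 arrays were compared by Pearson's r as a description, since arrays of a group share their cells and quantile normalization gives all arrays the same distribution. Among the receptors, Csf3r and Il6st were the most alike (r = 0.96, n = 11 arrays), followed by Csf2rb and Il3ra (r = 0.92). Kit was negatively correlated with Il7r (r = -0.73) and Flt3 (r = -0.80). Il7r was about as negatively correlated with Csf3r (r = -0.72) and Epor (r = -0.71). Between the B220- fractions Kit and Il7r went the same way, both called higher in CD31+ B220- cells. The Flt3 probe was detected on only 3 of the 11 arrays and on neither HSC array, so its r rests mostly on undetected values. Of all other tested genes, the 3 most like Kit were Nbdy, Hsd3b7 and Gspt2 (r = 0.99 each). For Csf1r they were Ptpro, Cd177 and Tlr13 (0.99 to 1.00), and for Csf3r Tnfsfm13, Nav1 and Pygl, the last a glycogen phosphorylase (0.99 each). Il7r was most like Vpreb3, Myl4 and the B lineage factor Ebf1 (0.99 to 1.00), and Epor was most like the peroxiredoxin Prdx2, the haem pathway enzyme Ppox and Iba57 (0.99 each). Il6st resembled the receptor kinase Axl, Tbc1d2 and Anxa5 (0.98 to 0.99), Csf2rb resembled Tpd52, Galns and Ticam2 (0.96 to 0.98), and Il3ra resembled Grn, Sdf2l1 and Il31ra (0.96 to 0.97). The dim Flt3 probe was nearest to Mrps35, Slx4ip and Rbm6 (0.91 to 0.92).

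The receptors work with partner chains, of which 17 of 26 listed were tested. Against HSC, 7 of the 17 were called in CD31+ B220+ cells (2 higher, 5 lower), 8 in CD31+ B220- cells (4 and 4) and 11 in CD31- B220- cells (5 and 6). These are 41.2%, 47.1% and 64.7% of the list, beside 44.2%, 41.3% and 49.2% of all genes. Il6ra, the interleukin-6 binding chain that joins Il6st, had mean levels of 10.71 ± 0.22 in CD31+ B220- and 10.80 ± 0.40 in CD31- B220- cells (SD, n = 3 each), against 6.72 ± 0.66 in HSC (n = 2) and 7.26 ± 0.28 in CD31+ B220+ cells (n = 3). It was 15.9-fold and 16.9-fold higher than in HSC in the B220- fractions (adjusted p = 2.35e-06 and 1.19e-06). Csf2ra, the GM-CSF binding chain that joins Csf2rb, was higher than in HSC in CD31+ B220- cells (5.57-fold, adjusted p = 3.4e-05) and in CD31- B220- cells (3.46-fold, adjusted p = 0.000243, a call lost under scaling to a common median at 0.204). Il2ra, the interleukin-2 receptor alpha chain, was detected in CD31+ B220+ cells at 8.15 ± 0.20 (n = 3) and on no HSC array, at least 7.40-fold apart (adjusted p = 8.89e-07). Il21r, the interleukin-21 receptor, was the other chain called higher there. Csf2rb2, a close copy of Csf2rb in the mouse, was at 6.87 ± 0.18 in HSC (n = 2) and 6.76 ± 0.30 in CD31+ B220- cells (n = 3), and was detected on no CD31+ B220+ array. Whether probes of these 2 copies bind each other's RNA was not tested. Ghr, the growth hormone receptor, reached 7.68 ± 0.02 in HSC (n = 2) and 6.71 ± 0.40 in CD31- B220- cells (n = 3), and neither CD31+ fraction had an array that detected it. Il27ra, which pairs with Il6st in the interleukin-27 receptor, fell from 10.04 ± 0.03 in HSC to 6.11 ± 0.46 in CD31- B220- cells (adjusted p = 6.99e-07). Among the fractions, 6 partner chains were called between the CD31+ fractions, 8 between CD31+ B220+ and CD31- B220- cells and 5 between the B220- fractions. These shares of 35.3%, 47.1% and 29.4% were near those of all genes (35.3%, 44.8% and 28.1%).

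Ligand genes were mostly dim. Of 20 listed, 19 had a named probe and 12 were tested, and those for stem cell factor (Kitl), GM-CSF (Csf2), erythropoietin (Epo) and interleukins 3, 5, 6 and 11 (Il3, Il5, Il6 and Il11) were not detected on 2 arrays. Against HSC, 5 of the 12 ligands were lower in every fraction (Ctf1, Il7, Tslp, Il27 and Csf1), where 25.6%, 23.7% and 28.3% of all genes were lower. The Il7 call in CD31- B220- cells was lost with the mean over its probes (log2 -0.30, adjusted p = 0.0922). Il7, the Il7r ligand, was at 6.77 ± 0.05 in HSC (SD, n = 2) and on no fraction array detected, so it was at least 2.37-fold lower in CD31+ B220+ cells (adjusted p = 2.58e-05). Clcf1, a ligand of the Il6st family, was at 7.36 ± 0.40 in CD31+ B220+ cells (n = 3). It was detected on 1 of 2 HSC arrays and by neither B220- fraction. It was at least 3.89-fold and 3.67-fold higher there than in CD31+ B220- and CD31- B220- cells (adjusted p = 1.73e-05 and 1.41e-05), the only ligand called in the latter comparison. Osm, another ligand of that family, was highest in CD31+ B220- cells at 9.87 ± 0.27 (n = 3), 2.84-fold above CD31- B220- cells (adjusted p = 0.0107) and 3.97-fold above HSC (adjusted p = 0.00287, a call lost under scaling to a common median at 0.237).

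Of 11 JAK and STAT genes, 9 were tested. Against HSC, 5 were lower in CD31+ B220+ cells (background 25.6%) and Stat6 higher, 5 were lower in CD31+ B220- cells (23.7%) and Tyk2 higher, and 4 were lower in CD31- B220- cells (28.3%). The remaining 3, 3 and 5 genes were not called, and in CD31- B220- cells 4 of these had positive differences, of 0.06 to 0.48 on the log2 scale. Stat4, a transcription factor of the interleukin-12 pathway, fell from 10.65 ± 0.16 in HSC (SD, n = 2) to 8.66 ± 0.20 on the CD31+ B220- arrays, 7.95 ± 0.47 on the CD31+ B220+ arrays and 6.05 ± 0.65 on those of CD31- B220- cells (n = 3 each). Jak3, the kinase bound to the common gamma chain, was at 9.49 ± 0.06 in HSC and 6.38 ± 0.25 in CD31- B220- cells, 8.62-fold lower (adjusted p = 1.03e-05). Stat5a, which transmits signals of Epor, Il7r and the beta chain, was lower than in HSC in all 3 fractions, by 0.64 to 1.53 on the log2 scale. Under scaling to a common median 8, 8 and 9 of the 9 were called lower in the same 3 comparisons, and all genes shifted by a median of -1.21, -1.12 and -1.06.

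The list of feedback inhibitors and STAT targets had 22 genes, all tested. Against HSC, 11 were called in CD31+ B220+ cells (4 higher, 7 lower), 10 in CD31+ B220- cells (5 and 5) and 9 in CD31- B220- cells (1 and 8). These are 50%, 45.5% and 40.9% of the list, beside 44.2%, 41.3% and 49.2% of all genes, and the median log2 differences were -0.06, -0.55 and -0.46. Under scaling to a common median the calls were 15 lower and 2 higher, then 15 lower, then 17 lower. Most genes went the same way: that scaling called 8446, 8298 and 8114 genes in all. Only 9.24%, 10.8% and 13.4% of those were higher than in HSC. Cish, a STAT5-induced inhibitor of cytokine receptors, was at 11.48 ± 0.08 in HSC (SD, n = 2) and at 7.27 ± 0.43 in CD31+ B220+, 7.94 ± 0.36 in CD31+ B220- and 7.53 ± 0.47 in CD31- B220- cells (n = 3 each). Socs2, of the same inhibitor family, was at 11.02 ± 0.11 in HSC, 8.02 ± 0.07 and 8.01 ± 0.31 in the CD31+ fractions and 5.40 ± 0.07 in CD31- B220- cells, 48.9-fold below HSC (adjusted p = 8.32e-09). Ccnd2, a D-type cyclin, was at 11.84 ± 0.32 in HSC, 10.97 ± 0.13 and 10.51 ± 0.44 in the CD31+ fractions and 7.49 ± 0.27 in CD31- B220- cells. Socs4 was the only gene of this list called above HSC in CD31- B220- cells. Between CD31+ B220+ and CD31- B220- cells 11 of the 22 were higher (22.4% of all genes) and only Id1 lower (22.5%). Id1, an inhibitor of differentiation factors, was detected on no CD31+ B220+ array but at 8.25 ± 0.24 in CD31+ B220- cells (n = 3).

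Adaptors and kinases downstream of the receptors (13 of 16 tested) differed in both directions. Against HSC, 6 of the 13 were called in CD31+ B220+ cells (2 higher, 4 lower), 4 in CD31+ B220- cells (1 and 3) and 5, all of them lower, in CD31- B220- cells. These are 46.2%, 30.8% and 38.5% of the list, beside 44.2%, 41.3% and 49.2% of all genes. Under scaling to a common median 8, 10 and 9 were lower, with 1 higher in each CD31+ fraction. Of the 8446, 8298 and 8114 genes called in all under that scaling, only 9.24%, 10.8% and 13.4% were higher. Syk, a kinase of antigen and Fc receptors, was at 8.96 ± 0.35 in CD31+ B220+ cells (SD, n = 3), 6.64 ± 0.63 in CD31+ B220- cells and 6.24 ± 0.09 in HSC (n = 2), and was detected on no CD31- B220- array. Dok2, an adaptor that restrains kinase signals, showed another order, at 9.45 ± 0.10 in HSC and 8.49 ± 0.17 in CD31+ B220- cells, and was detected on no CD31+ B220+ array. Gab1, a docking protein for growth factor receptors, was at 10.02 ± 0.06 in HSC and 10.17 ± 0.44 in CD31- B220- cells, and at 7.32 ± 0.26 and 7.75 ± 0.15 in the CD31+ B220+ and CD31+ B220- fractions. Between CD31+ B220+ and CD31- B220- cells 10 of 13 were called, 5 in each direction, against 44.8% of all genes.

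**Figure D4:**
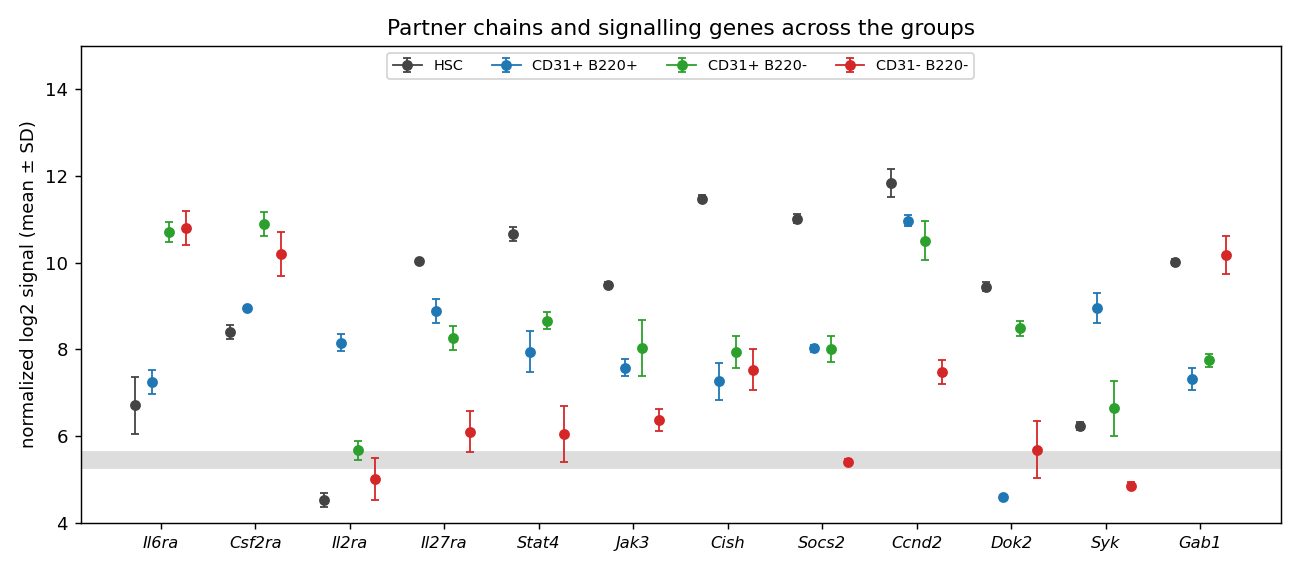
Mean log2 signal (± SD, n = 2 for HSC and n = 3 for each fraction) of 12 partner chains, signalling genes and inhibitors named in the text, with the grey band spanning the lowest detected level of the arrays (5.26 to 5.64). Il6ra is near 10.7 and 10.8 in the B220- fractions, and Cish, Socs2, Stat4 and Jak3 are highest in HSC. Levels are compared within a gene only.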

How the data were processed

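Per the labels' protocols, total RNA was extracted with a Qiagen RNeasy kit, some samples were pooled, and biotin-labelled cRNA (Illumina TotalPep kit) was hybridised to the bead arrays. The deposited non-normalized data hold a linear bead intensity per probe and array. Each is paired with a deposited fraction that rises with the signal (Spearman's rho of at least 0.987), taken as the complement of the detection p-value. The authors' processed values, in the deposited matrix, ran from 1.57 to 14.89 on every array and were treated as log2 values, although no source used here states the base. They served as an alternative. Per the submitters' processing notes, lumi 1.1.0 was used, with no role given. Samples were grouped by their titles. The 3 CD31- B220- samples carry source names that start with HSC, and their titles were followed.

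Background was removed by normexp, with its parameters taken from the detection p-values; an offset of 16, quantile normalization and log2 followed (neqc of limma 3.58.1, R 4.3.3). Of the probes, 34885 carried 1 gene symbol, 18 several and 10378 none. Each gene was represented by its brightest probe on average, and 11381 genes detected at p under 0.05 on at least 2 arrays were tested. One linear model with 4 group means was fitted to all arrays. The 6 contrasts (2-sided) and the F-test of the fractions used limma's empirical Bayes test, with Benjamini-Hochberg adjustment over all genes tested and a threshold of 0.05. The script was tested on simulated data. With 2 or 3 arrays a group, precision is limited by their number. Same-numbered arrays of different groups did not deviate together (r of -0.07 to 0.18 over 15 pairs, 1 of them over 0.1), so no pairing was used. No 2 arrays held identical signals.

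The receptors, the pathway lists and the marker lists were chosen with earlier results of these data known. All 9 receptors are named. From each pathway list, the 3 called genes with the largest difference in a comparison could be named, together with members of counts of 5 or fewer, which were chosen after their values were seen. Named beside each receptor are the 3 genes with the highest Pearson r. Markers named singly were chosen after their levels were seen. The alternatives changed the background correction, the normalization, the detection filter, the choice of probe, the arrays in the fit and the replicate block. Taking logarithms before quantile normalization was an alternative added after seeing the data. Promoter windows are RefSeq's (GRCm38.p6).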

Additional observations from a re-analysis of the deposited data

How the results depend on the processing

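The calls of Kit, of Csf1r and Il7r in the CD31+ B220- fraction, of Epor in CD31- B220- cells and of Csf3r and Il6st as lowest in CD31+ B220+ cells held under all 22 alternatives, in the comparisons where they are reported as called. Over the 54 receptor differences, 570 values kept direction and call under settings other than leaving out an array, 11 gained a call, 5 lost one and 8 changed sign. Leaving out each array gave 570, 11, 7 and 6.

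Scaling to a common median changed the most. It shifted all genes against HSC by medians of -1.21, -1.12 and -1.06 and called 8446 genes in CD31+ B220+ and 8298 in CD31+ B220- cells, against 5029 and 4704. The share of called genes that were higher than in HSC fell from 42.1% to 9.24%, from 42.7% to 10.8% and from 42.4% to 13.4%, and between the CD31+ fractions from 47.5% to 36.3%. Against HSC it turned the log2 differences of Csf1r (-0.052) and Il3ra (-1.13) in CD31+ B220+ cells, of Csf3r (-1.03) and Il6st (-0.98) in CD31+ B220- cells, and of Csf3r (-0.88) and Il3ra (-0.63) in CD31- B220- cells. Csf1r between the B220- fractions turned to -0.063. Of the pathway lists it called 14, 13 and 13 partner chains against HSC in the CD31+ B220+, then CD31+ B220-, then CD31- B220- cells, 17, 15 and 17 feedback genes and 9, 11 and 9 adaptors, against 7, 8 and 11, then 11, 10 and 9, then 6, 4 and 5. Which scaling is nearer to the RNA content of the cells was not tested.

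Between the B220- fractions, Flt3 turned to -0.11 with the mean over its probes, to -0.13 without CD31+ B220- replicate 3 and to -0.13 without CD31- B220- replicate 3. Csf1r there turned to -0.0015, -0.097 and -0.036 without CD31+ B220- replicate 2, CD31- B220- replicate 1 and CD31- B220- replicate 2, and Csf3r to 0.19 without CD31- B220- replicate 3. With each array left out, Csf1r there ranged from -0.097 to 0.22 and Csf3r from -0.26 to 0.19. None of these values passed the test, and the cause was not tested.

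With each array left out, 3609 to 5195, 3104 to 4867 and 4188 to 5639 genes were called against HSC in CD31+ B220+, then CD31+ B220-, then CD31- B220- cells, the lowest without HSC replicate 1. Among the fractions the ranges were 3247 to 4127, 4508 to 5087 and 2519 to 3460, and 5253 to 5943 by the F-test. Receptor counts ranged from 4 to 7, 5 to 6 and 4 to 7 against HSC, from 7 to 8, 6 to 7 and 4 to 6 among the fractions, and from 7 to 8 by the F-test. In fits that left 1 HSC array, that array was assumed to vary like the other groups.

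The replicate block gave 4802, 4417, 5342, 3880, 5015 and 3052 called genes in the 6 comparisons and changed no receptor call. At a detection p under 0.01, 16 of the 24 receptor probes were detected on at least 2 arrays. The slide as a block was not run because the files name no slide. Signal over background limits Flt3, Csf2rb and the undetected groups.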
